A study of Sus scrofa with 9 samples.

Results

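Fetal longissimus dorsi, a long back muscle, at day 90 of gestation (E90) was set against the same muscle at postnatal day 180, by the small RNA copies in 1 E90 library and 3 day 180 libraries. All libraries came from female pigs of the Jinhua breed, with no treatment named in the labels. They belong to a set of 9 libraries over 5 ages made from 15 pigs. The labels do not say how pigs were shared among the libraries or whether animals were pooled, so the spread that p-values rest on is one between libraries and may be technical. The arms compared were all those with 10 or more copies in at least 1 of the 4 libraries, and 157 of the 495 arms in the deposited tables met this rule. Of these, 63 carry the name of a known miRNA family (conserved) and 94 are putative new miRNAs, called PN with a number from their precursor. The rule used the counts of both ages, so an arm listed at 1 age only passed it through that age.

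A microRNA (miRNA) is cut from a hairpin precursor whose 5p and 3p sides each give an arm. One arm usually enters the Argonaute protein, and its bases 2 to 8, the seed, pair with target messenger RNAs. The DLK1-DIO3 domain is an imprinted region whose maternal chromosome gives rise to one of the largest miRNA clusters of mammals, which is known for high expression in embryonic and fetal tissue and in muscle stem cells. In mouse muscle, miR-431 of this cluster acts on Pax7, a factor of satellite cells, and miR-26a, of the same family as miR-26b, acts on Ezh2 during myogenic differentiation.

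The first set of sequences holds the cluster arms on which the comparison turns, together with miR-26b-5p. That arm had the most listed copies in each of the 4 libraries. Sequences are those of the deposited tables, 5′ to 3′, written with T for U, and capitals mark the seed.
miR-26b-5p: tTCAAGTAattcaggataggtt
miR-409-3p: gAATGTTGctcggtgaacccct
miR-431-5p: tGTCTTGCaggccgtcatgc
miR-431-3p: cAGGTCGTcttgcagggcttct
miR-655-3p: aTAATACAtggttaacctcttt
miR-485-3p: gTCATACAcggctctcctctct
miR-539-3p: aTCATACAaggacaatttcttt
miR-376b-3p: aTCATAGAggaaaatccatgt
miR-376d-3p: aTCATAGAggaaaatccacat
miR-411c-5p: gGTTGATCagagaacatacatt
miR-411c-3p: tGTATGTCaactgatccacagt
The pair miR-485-3p and miR-539-3p shares 1 seed, as does the pair miR-376b-3p and miR-376d-3p, whose sequences share their first 18 bases. Both arms of mir-411c are shown because the more abundant arm differed between the ages.

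Levels are given in RPM, the copies per 1000000 high-quality reads that the file headers state for a library. The copies of both tables made up 2.70% of the reads at E90, against 0.322%, 0.257% and 0.277% in day 180 replicates 1, 2 and 3, from 5042191 reads at E90 and 9024703 to 12259667 at day 180. The conserved arms summed to 23512 RPM at E90 (exact 95% counting interval 23378 to 23646), against 2509, 2003 and 2221 RPM at day 180. The putative new arms summed to 3484 RPM at E90, against 716, 567 and 553 RPM at day 180. Both sums at E90 were above all 3 day 180 libraries, 10.5 times the day 180 mean for conserved arms and 5.70 times for putative new arms. One arm, PN-1631-3p, carried most of the second sum. Without it and the overlapping entry PN-1633-3p, the putative new arms summed to 665 RPM at E90, against 704, 556 and 538 RPM at day 180, so that E90 lay within the day 180 range. As a share of listed copies the direction turned, with putative new arms at 12.9% at E90, against 22.2%, 22.05% and 19.9% at day 180. With 1 library against 3, no permutation of the libraries can give a p under 0.25, so the sums carry no test. In bulk muscle, fewer cells of a type and less RNA per cell cannot be told apart, and neither can age and library at E90.

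Among the 157 arms, 84 were listed at both ages, 30 at E90 only and 43 at day 180 only. Conserved arms were mostly listed at both ages (45 of 63, with 15 at E90 only and 3 at day 180 only). Of the 94 putative new arms, 40 were listed at day 180 only, 39 at both ages and 15 at E90 only. These counts are by name, and 40 of the 94 names overlapped another entry. A hairpin could thus be listed under different names, as with PN-80868-5p at E90 and PN-80865-5p at day 180. Day 180 also had 3 libraries, each with more reads than E90, in which an arm could be listed. The E90 level was above every day 180 library for 87 arms, within their range for 39 and below all of them for 31. Over all 196 arms tested, 49.5% were above and 16.3% below. The split was 50, 6 and 7 for conserved arms and 37, 33 and 24 for putative new arms. Just inside the rule, 10 arms had a highest count of exactly 10 copies, with a median of 0 RPM at E90 and 0.272 RPM at day 180. Just outside it, 5 arms had a highest count of 9, with medians of 0 RPM at E90 and 0.435 RPM at day 180.

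The test was edgeR's quasi-likelihood test on the 9 libraries per header read, with Benjamini-Hochberg adjusted p under 0.05 over 196 arms. It called 40 arms higher at E90 (20.4% of the 196 tested) and 6 lower (3.06%), all of them among the 157. Of the conserved arms, 29 were higher, 3 lower and 31 not called, and of the putative new arms 11, 3 and 80. The E90 group is 1 library, and the fit assumes that it varies like the replicates of day 180 and 7 years. When the libraries were scaled by TMM, which sets the bulk of the arms as equal, 14 arms were higher (7.14%) and 12 lower (6.12%). All 14 and 6 of the 12 were also called per header read. Under TMM 13 conserved arms were higher and 5 lower, while among putative new arms 1 was higher and 7 were lower, so the balance of the putative new calls turned over. Between the scalings the log2 fold changes of the 84 arms listed at both ages shifted by a median of 2.26, so directions below are per read unless TMM is named.

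**Figure D1:**
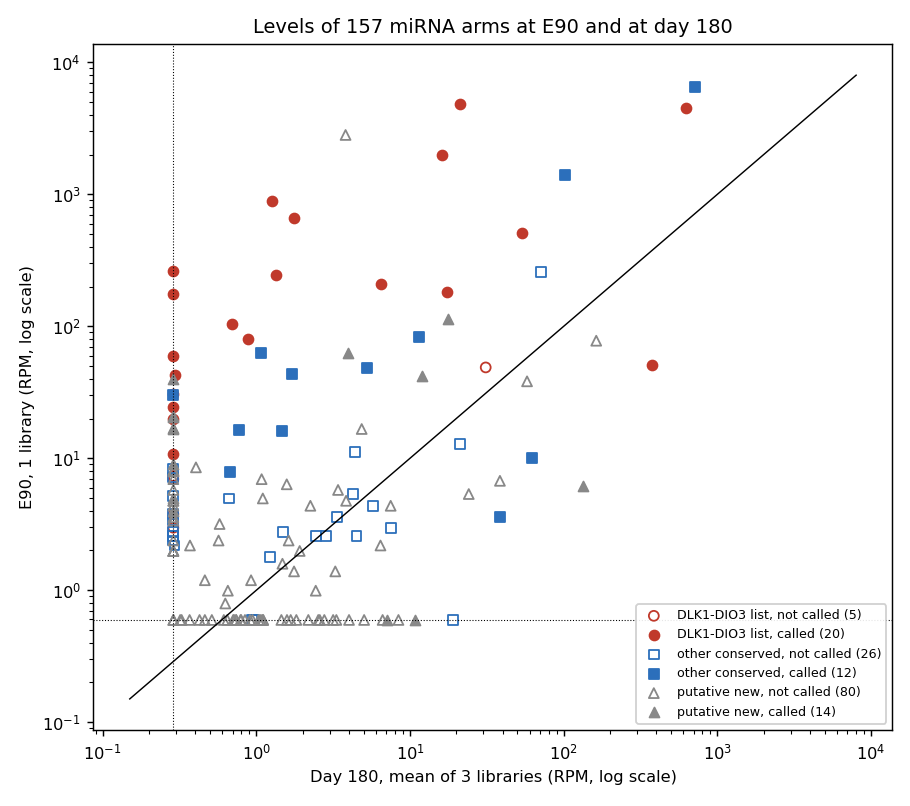
Level of each of the 157 arms at E90 (vertical axis, 1 library) against its mean in the 3 day 180 libraries (horizontal axis), both in RPM on log scales. Filled symbols were called by edgeR, arms not listed at an age are drawn at the floor of 3 copies (dotted lines), and the diagonal marks equal levels; most DLK1-DIO3 arms lie above it.

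The arms of the DLK1-DIO3 list were higher at E90 almost throughout. The list was drawn up from miRNA family names and not from location. Among its arms that met the copy rule, only those of mir-431, on chromosome 7, have a named chromosome. Membership of the cluster therefore rests on the names. Its 28 arms summed to 14940 RPM at E90, against 1250, 1054 and 1143 RPM at day 180, a ratio of 13 to the day 180 mean. Conserved arms outside the list were also higher per read, with 8572 RPM at E90, against 1259, 949 and 1079 RPM at day 180, a ratio of 7.82. The 28 arms of the list were 55.3% of the listed copies at E90, against 38.8%, 41.0% and 41.2% at day 180, a measure that does not use the read totals. Of the 25 arms that met the copy rule, 24 were above every day 180 library and 1, miR-411c-5p, was below all of them. Beside this, 49.5% of the 196 arms tested were above and 16.3% below. Among the 63 conserved arms that met the rule, this list included, 50 were above. Of the 25, per read 19 were called higher, 1 lower and 5 were not called, and with TMM 10 were higher and 2 lower. Shares over the 196 were 20.4% higher and 3.06% lower per read, and 7.14% and 6.12% with TMM. The median log2 fold change of the 25 was 7.48, beside 0.46 over all 196 arms tested. Of the 25, 18 were listed at both ages and 7 at E90 only.

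Among the abundant arms of the cluster, miR-409-3p had 4799 RPM at E90, against 27.7, 14.1 and 21.3 RPM in day 180 replicates 1 to 3 (log2 fold change 7.83 ± 0.45 SE, adjusted p = 3.77e-06 by edgeR). It was 17.8% of all listed copies at E90 and ranked second of the listed arms there. The 3p arm of mir-655, which is reported to act on ZEB1 in human cancer cells, had 1994 RPM at E90, against 16.4, 16.3 and 15.96 RPM at day 180 (log2 fold change 6.94 ± 0.34 SE, adjusted p = 1.28e-07 by edgeR). Relative to their mean, its 3 day 180 libraries lay closer together than those of the other cluster arms named here. The levels of miR-485-3p were 884 RPM at E90, against 1.47, 0.767 and 1.55 RPM at day 180 (log2 fold change 9.43 ± 0.57 SE, adjusted p = 3.77e-06 by edgeR). The 5p arm of mir-412 had 659 RPM at E90, against 3.51, 0.575 and 1.22 RPM at day 180, and day 180 replicate 1 stood above the other two. For all 4 arms E90 was above every day 180 library by more than 100-fold over the mean, and the calls held with TMM.

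The most abundant cluster arm at day 180 was miR-431-5p (precursor at chromosome 7, 132097559 to 132097659, plus strand, Sscrofa10). It had 4527 RPM at E90, against 724, 548 and 592 RPM at day 180. The groups did not overlap, and the log2 fold change of 2.87 ± 0.33 (SE, adjusted p = 8.14e-05 by edgeR) was among the smaller ones of the list. With TMM it was 0.59 and not called (edgeR adjusted p = 0.217), and as a share of listed copies miR-431-5p was 16.8% at E90 and 21.7 ± 0.63% at day 180 (SD, n = 3). Without this arm the cluster summed to 10413 RPM at E90, against 526, 506 and 551 RPM at day 180, and the ratio to the mean was 19.7. miR-544-5p followed the same course, with 510 RPM at E90, against 70.8, 50.3 and 38.9 RPM at day 180, called per read and not with TMM.

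Arms with the same seed differed in how far they were apart. In the pair with seed TCATACA, miR-485-3p was 700 times its day 180 mean at E90, while miR-539-3p had 48.8 RPM at E90, against 37.0, 27.4 and 28.8 RPM at day 180. miR-539-3p was not called per read (log2 fold change 0.65 ± 0.46 SE, adjusted p = 0.373 by edgeR) and was called lower with TMM (-1.62, edgeR adjusted p = 0.0269). In the pair with seed TCATAGA, miR-376d-3p had 261 RPM at E90 and 3 copies in each day 180 library, which is 0.245, 0.287 and 0.332 RPM. Its partner miR-376b-3p had 207 RPM at E90, against 9.63, 4.70 and 5.21 RPM at day 180. Both were called higher per read and with TMM. Summed over that seed, the level was 468 RPM at E90, against 9.87, 4.98 and 5.54 RPM at day 180. The arms miR-154b-3p and miR-487a-3p, with seed ATCATAC, were listed at E90 only.

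No day 180 library listed 7 arms of the DLK1-DIO3 list. Their folds are set against the mean of the day 180 floors of 3 copies per library. They are lower bounds only if an unlisted arm had at most 3 copies, which was not tested. For miR-301a-3p, day 180 replicates 1 and 2 listed 419 and 242 copies and replicate 3 listed none. At E90 miR-496-3p had 30.5 RPM, 106-fold the day 180 floor, and miR-154b-3p had 24.4 RPM, 84.6-fold the floor. Both were called per read and not with TMM. The others were miR-412-3p, miR-409-5p, miR-487a-3p, miR-655-5p and miR-376d-5p, from 10.7 down to 2.97 RPM at E90. Of these 5, only miR-412-3p was called (edgeR adjusted p = 0.0497), and its call was lost when any 1 replicate of day 180 or 7 years was left out. Fitted on the conserved table alone, the other 4 were called as well. Further called arms, miR-377-5p, miR-377-3p, miR-541-3p, miR-541-5p, miR-154b-5p and miR-539-5p, had E90 levels from 19.8 to 181 RPM. Each of these 6 was above all 3 day 180 libraries.

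**Figure D2:**
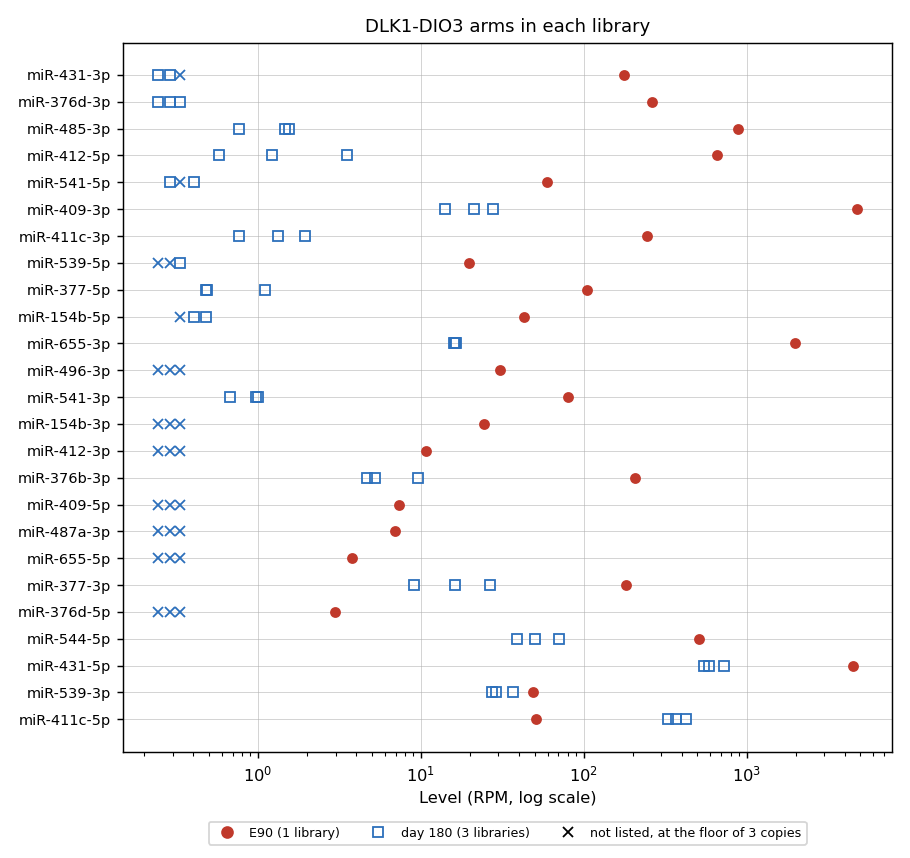
RPM (log scale) of the 25 DLK1-DIO3 arms in the E90 library (filled circles) and in each of the 3 day 180 libraries (open squares), with crosses at the floor of 3 copies for libraries that did not list the arm. Arms are ordered by the ratio of E90 to day 180, and the E90 point lies right of all day 180 points in every row but miR-411c-5p at the bottom.

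The arm that dominates a precursor was compared next, since the ratio of 2 arms within a library does not use the read totals. Of 37 precursors with both arms tested, edgeR's test of arm usage called 5 (13.5%), and 4 of these belong to the DLK1-DIO3 list. From the same list, mir-154b, mir-376d, mir-409, mir-412, mir-541 and mir-655 were tested and not called. The largest change was in mir-411c. Its 3p arm made up 82.8% of the precursor's copies at E90 (95% Wilson interval 80.8 to 84.6), against 0.593%, 0.206% and 0.312% at day 180. Per arm, miR-411c-3p had 246 RPM at E90, against 1.96, 0.767 and 1.33 RPM at day 180. The opposite held for miR-411c-5p, with 51.0 RPM at E90, against 328, 371 and 425 RPM at day 180. Both differences were called (by edgeR, 7.48 ± 0.61 SE with adjusted p = 3.26e-05 for 3p and -2.88 ± 0.58 SE with adjusted p = 0.00321 for 5p, as log2 fold changes), and both kept their call with TMM. The sequence listed for each arm was the same in all 4 libraries. The difference between the arms' log2 fold changes was 10.36 (edgeR adjusted p = 5.69e-05 over 37 precursors).

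In mir-431 the 3p arm was 3.75% of copies at E90, against 0.0338%, 0.0524% and 0% at day 180. miR-431-3p had 176 RPM at E90, against 0.245, 0.287 and 0 RPM at day 180, of which the first 2 rest on 3 copies each. The arm difference of 6.91 was called (edgeR adjusted p = 0.00139), with 5p the major arm at both ages. Shares of the 3p arm were lower at E90 in the next 2 precursors. For mir-377 the share was 63.5% at E90, against 98.2%, 97.1% and 89.1% at day 180, and for mir-539 it was 71.1% at E90, against 100%, 100% and 98.9% at day 180. In mir-26b, outside the cluster, 3p was 0.0551% of copies at E90, against 0.405%, 0.537% and 0.470% at day 180. Levels of miR-26b-3p were 3.57 RPM at E90, against 3.26, 3.45 and 3.32 RPM at day 180, while the 5p arm at E90 was 9.05 times its day 180 mean. The adjusted p of these 3 precursors lay between 0.0316 and 0.0383 by edgeR, and without day 180 replicate 1 or without day 180 replicate 2 none of them was called. mir-26b also lost its call without day 180 replicate 3 or 7 years replicate 3. mir-411c and mir-431 were called under every alternative tried.

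**Figure D3:**
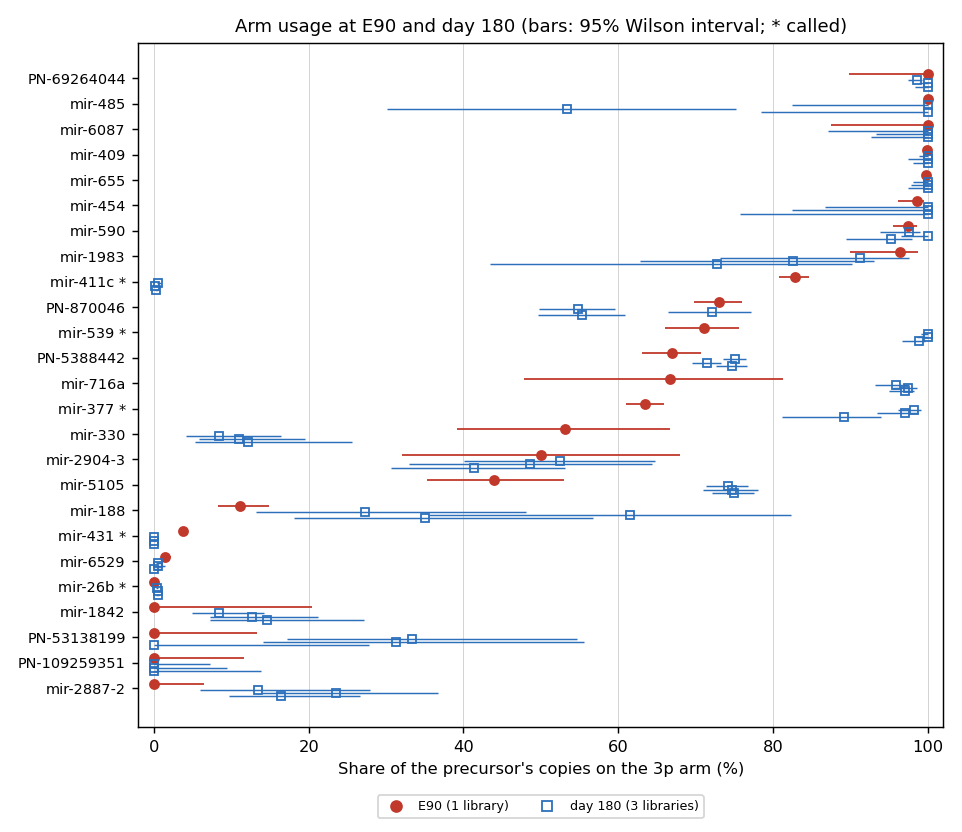
Share of a precursor's copies on the 3p arm (percent, horizontal axis) for the 25 precursors with 10 or more copies in each of the 4 libraries, with E90 as filled circles, the 3 day 180 libraries as open squares and 95% Wilson intervals as bars, which cover counting error only. Asterisks mark the 5 precursors called by edgeR, and mir-411c stands at 82.8% at E90 against under 1% at day 180.

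Outside the cluster, miR-26b-5p and miR-660-5p were the most abundant conserved arms called higher. miR-26b-5p had 6477 RPM at E90, against 802, 640 and 704 RPM at day 180 (log2 fold change 3.18 ± 0.29 SE, adjusted p = 1.84e-05 by edgeR). Its share of listed copies was 23.99% at E90 and 24.9%, 24.9% and 25.4% at day 180. It thus ranked first among the listed arms of each library, with nearly the same share. A putative new arm, PN-24885174-5p (chromosome 13, 24885174 to 24885436, minus strand), has the same seed. It had 62.3 RPM at E90, against 4.73, 4.12 and 2.99 RPM at day 180 (log2 fold change 3.97 ± 1.09 SE, adjusted p = 0.0214 by edgeR). That call was lost with TMM (edgeR adjusted p = 0.393) and without day 180 replicate 2 or 3 or 7 years replicate 2. The pair is shown with the bases of their shared stretch in capitals.
miR-26b-5p: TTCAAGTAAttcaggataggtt
PN-24885174-5p: TTCAAGTAAcccaggataggctt

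The X chromosome hairpins mir-188 and mir-660 lie close together (48632378 to 48640903, plus strand), in an intron of the chloride channel gene CLCN5 in human. All 3 of their arms were called higher per read. miR-660-5p had 1402 RPM at E90, against 138, 68.1 and 99.5 RPM at day 180 (log2 fold change 3.78 ± 0.40 SE, adjusted p = 4.95e-05 by edgeR). miR-188-5p had 63.1 RPM at E90, against 1.31, 0.479 and 1.44 RPM at day 180 (log2 fold change 5.85 ± 0.78 SE, adjusted p = 0.000519 by edgeR). These 2 calls held with TMM and the call of miR-188-3p, at 7.93 RPM at E90, did not. The miR-188-3p call was also lost without day 180 replicate 1, 2 or 3.

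The miR-130 seed family (AGTGCAA) pairs with targets through 1 shared seed, and its 3 arms did not share 1 outcome. miR-301b-3p had 48.4 RPM at E90, against 7.18, 3.55 and 4.99 RPM at day 180, and miR-454-3p had 43.4 RPM at E90, against 2.04, 1.72 and 1.33 RPM. Both were called higher per read (edgeR adjusted p = 0.00967 and 0.000507), neither with TMM, and the call of miR-301b-3p was lost without day 180 replicate 2. miR-301a-3p was not listed at E90 and had 34.2, 23.2 and 0 RPM at day 180, so the day 180 libraries themselves spanned the whole range and it was not called. Summed over the seed the level was 91.8 RPM at E90, against 43.4, 28.5 and 6.32 RPM at day 180. The sequences of the 3 arms differ outside the seed, which capitals mark.
miR-301a-3p: cAGTGCAAtagtattgtcaaagc
miR-301b-3p: cAGTGCAAtgatattgtcaaagc
miR-454-3p: tAGTGCAAtattgcttatagggt

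Further conserved arms called higher per read and not with TMM were miR-590-3p, miR-33a-5p, miR-1983-3p and miR-216b-5p. miR-590-3p, which promotes proliferation of rodent heart muscle cells, had 82.7 RPM at E90, against 12.9, 10.2 and 11.2 RPM at day 180. miR-33a-5p, encoded in an intron of the sterol regulator SREBF2 and acting on the cholesterol transporter ABCA1, had 16.3 RPM at E90, against 0.816, 0.958 and 0.554 RPM at day 180. miR-216b-5p, known from the pancreas, had 29.9 RPM at E90 and no listed copy at day 180, 104-fold the day 180 floor of 3 copies. E90 lay above all day 180 libraries for each of these arms. The call of miR-1983-3p was lost without day 180 replicate 2 or 3 or 7 years replicate 3. Without 7 years replicate 2 the calls of miR-216b-5p and, in the cluster, of miR-154b-3p and miR-539-5p were lost. miR-6529-5p, among the 10 most abundant arms at day 180, had 257 RPM at E90, against 107, 57.3 and 49.1 RPM at day 180, and was called only when 7 years replicate 3 was left out.

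The conserved arms called lower at E90 were miR-411c-5p, described above, and 2 arms of a block of chromosome 6 hairpins. miR-5105-3p (870882 to 870961, minus strand) had 10.1 RPM at E90, against 60.6, 40.7 and 84.1 RPM at day 180 (log2 fold change -2.61 ± 0.79 SE, adjusted p = 0.0346 by edgeR). miR-716a-3p (868791 to 868939, minus strand) had 3.57 RPM at E90, against 25.2, 40.7 and 50.4 RPM at day 180 (log2 fold change -3.43 ± 0.997 SE, adjusted p = 0.0290 by edgeR). For both arms the sequence listed at E90 began at another base than those listed in the 3 day 180 libraries. That of miR-5105-3p was 17 nt at E90 and 16 nt in each day 180 library. That of miR-716a-3p was 22 nt at E90 and 24, 20 and 19 nt in day 180 replicates 1, 2 and 3. The copies of these arms thus need not be of 1 fixed product. Both calls held with TMM. Neither held without day 180 replicate 3, 7 years replicate 2 or 7 years replicate 3, and that of miR-716a-3p was also lost without day 180 replicate 2. The 10 arms of the block, from mir-2887-2 to mir-5105, summed to 49.98 RPM at E90, against 118, 110 and 185 RPM at day 180. Reads under 20 nt made up 39.7% of the block's copies by their listed sequence at E90, against 54.8%, 42.5% and 80.2% at day 180. miR-5105-5p had 12.9 RPM at E90, against 21.1, 13.8 and 28.1 RPM at day 180. Its log2 fold change was -0.70 per read, not called, and -2.99 with TMM, called lower. The 5p and 3p arms of mir-5105 share 17 bases, shown in capitals, so the arms cannot be separated in copies.
miR-5105-3p: CCTTCTGATCGAGGCCC
miR-5105-5p: ccaagtCCTTCTGATCGAGGCCC

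Few of the arms searched as marks of other cell types were among the 495, and those listed were low. The lists for endothelium and for smooth muscle and fibroblasts had no arm there, so these cell types could not be assessed. The epithelial list summed to 13.3 RPM at E90, against 2.20, 1.25 and 1.88 RPM at day 180, with miR-200b-3p and miR-200c-3p listed at E90 only and miR-141-3p at 2.78 RPM at E90, against 1.96, 0.958 and 1.55 RPM at day 180. Of the blood list only miR-223-3p was present, with 2.58 RPM at E90, against 3.67, 7.57 and 2.22 RPM at day 180. Of the nerve list only miR-219-3p was, with 2.58 RPM at E90 and no listed copy at day 180. None of these was called in the fit of both tables, and fitted on the conserved table alone miR-200b-3p, miR-200c-3p and miR-219-3p were. Their part in the differences was not tested. For the muscle label, the measured entries of miR-1 and miR-208a summed to 0.992 RPM at E90, against 0.653, 0.767 and 0 RPM at day 180. All levels here are those of listed copies, which were 2.70% of the reads at E90 and at most 0.322% at day 180. What the other reads held is not known. The muscle miRNAs miR-133, miR-206, miR-486 and miR-499 were looked for and had no entry among the 495 arms, so the label was not tested.

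Putative new arms were led at E90 by PN-1631-3p, with 2819 RPM or 10.4% of all listed copies. By name it had 11.4 RPM in day 180 replicate 1 and none in replicates 2 and 3, and it was not called (edgeR adjusted p = 0.112) unless day 180 replicate 1 was left out or empty cells were counted as 2 copies. The 2 libraries without it listed PN-1633-3p instead, at 10.2 and 15.1 RPM. The pair shares 20 bases, in capitals below.
PN-1631-3p: TGGTGCCTGACGTCTTGGCAgt
PN-1633-3p: tgTGGTGCCTGACGTCTTGGCA
Entries on 1 chromosome and strand that start within 300 bp of each other and share 16 bases were therefore joined in an alternative. Joined, PN-1631-3p had 2819 RPM at E90, against 11.4, 10.2 and 15.1 RPM at day 180, 231 times the mean (log2 fold change 7.85 ± 0.68 SE, adjusted p = 2.45e-05 by edgeR).

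Joining left 81 putative new arms with 10 copies, 27 of them made of several entries, and 40 of the 94 arms by name lay in an overlapping group. Among the 81, 16 were called higher, 6 lower and 59 not, and over all 168 joined arms tested 30.4% were higher and 5.36% lower. Of the 14 putative new calls by name 11 held after joining. PN-133590719-5p, PN-151102661-5p and PN-80868-5p were no longer called. PN-80868-5p had 9.12 RPM at E90 only, and the overlapping PN-80865-5p had 3.59, 2.40 and 1.77 RPM at day 180 only. All 32 conserved calls held.

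The joined arms higher at E90 included PN-32286946-5p, with 39.9 RPM at E90, against 1.39, 0.862 and 0.443 RPM at day 180. PN-870046-3p, a single entry, had 114 RPM at E90, against 17.4, 18.1 and 17.8 RPM at day 180 (in the joined fit log2 fold change 2.68 ± 0.42 SE, adjusted p = 0.000838 by edgeR), and its 5p arm had 42.0 RPM at E90, against 14.4, 7.00 and 14.4 RPM. Day 180 levels of the 3p arm differed by less than 1 RPM among the 3 libraries. The 5p arm of the PN-1631 hairpin, joined, had 20.4 RPM at E90, against 0.734, 0.575 and 0.665 RPM at day 180, and PN-44808835-5p, joined, had 20.8 RPM at E90, against 0.979, 0.671 and 0.443 RPM. PN-11744-3p had 17.1 RPM at E90, against 0.326, 0.287 and 0 RPM at day 180. All of these were above every day 180 library. PN-19684419-3p (chromosome 2) had 16.7 RPM at E90 and no listed copy at day 180, 57.8-fold the day 180 floor of 3 copies. By name all 7 were called higher per read, and with TMM only PN-32286946-5p was. The TMM adjusted p by edgeR was 0.275 for PN-11744-3p and 0.0823 for PN-19684419-3p, and the log2 fold change of PN-870046-5p changed sign, to -0.44. By name, the call of PN-19684419-3p was lost without 7 years replicate 2. Those of PN-11744-3p and PN-870046-5p were lost without day 180 replicate 2, 7 years replicate 2 or 7 years replicate 3. PN-44808835-5p lost its call without day 180 replicate 2 or 3 or 7 years replicate 2 or 3, and PN-1631-5p without any 1 of these or 7 years replicate 1.

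The most abundant putative new arm called lower was PN-7444591-3p (chromosome 2, 7444591 to 7444852, minus strand). It had 6.15 RPM at E90, against 173, 120 and 110 RPM at day 180 (log2 fold change -4.45 ± 0.70 SE, adjusted p = 0.000719 by edgeR), and held with TMM and after joining. PN-30185188-3p (chromosome 5) was not listed by name at E90 and had 10.2, 9.77 and 12.3 RPM at day 180. Joined with its neighbour it had 3 copies, 0.595 RPM, at E90 and stayed called. PN-69264044-3p (chromosome 17) had 6.74 RPM at E90, against 56.9, 33.1 and 25.5 RPM at day 180, and was called after joining (edgeR adjusted p = 0.0442) and not by name (edgeR adjusted p = 0.0515). The most abundant putative new arm at day 180, PN-5388442-3p (chromosome 5), had 77.7 RPM at E90, against 191, 151 and 146 RPM, and was called lower with TMM and not per header read. Its 5p arm had 38.3 RPM at E90, against 63.5, 60.4 and 49.4 RPM at day 180, with the same pair of outcomes. These arms are shown, with the seed in capitals.
PN-7444591-3p: tTTGTTGGctcctctgaagtga
PN-30185188-3p: tCTGAGATgtgacctgggcatc
PN-69264044-3p: cCCGACCTcccgtagctcact
PN-5388442-3p: aTGCGGAAcctgcggatacgg

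**Figure D4:**
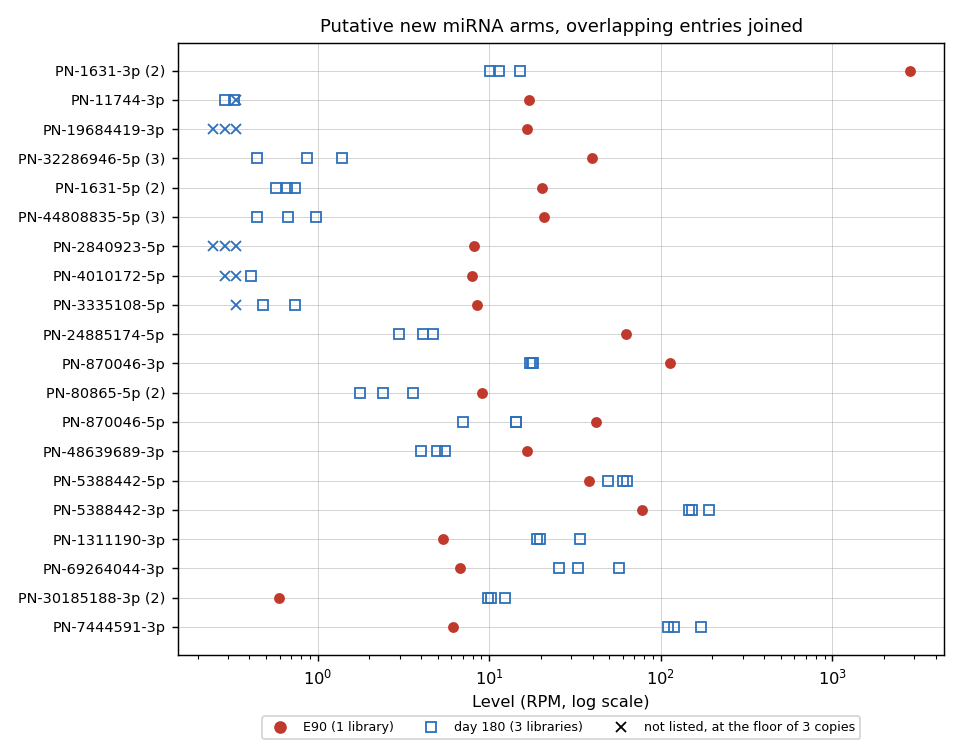
RPM (log scale) of the 20 putative new arms with the highest level at either age after overlapping entries were joined, with the number of entries joined in parentheses. E90 is a filled circle, the 3 day 180 libraries are open squares and crosses stand at the floor of 3 copies; PN-1631-3p has 2819 RPM at E90 against at most 15.1 RPM at day 180, and PN-7444591-3p has 6.15 RPM at E90 against 110 RPM or more.

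The sequence listed as most abundant was compared for the 84 arms listed at both ages. Of 45 conserved arms, 24 had the same sequence in every library that listed them, and 37, these included, began at the same base, 2 of them with 1 base difference further along. The other 8 had another start or another sequence in at least 1 day 180 library. Of 39 putative new arms, 26 had the same sequence and 37 the same start, 4 of these with 1 base difference, and the other 2 began elsewhere in at least 1 day 180 library. miR-223-3p was 22 nt at E90 and 19 nt in all 3 day 180 libraries, with the same start. PN-48639689-3p differed at its 3′ end by T23A (positions from 1 at the 5′ end, E90 base first) in all 3 day 180 libraries. There its listed sequence was also longer, at 24 nt against 23 nt at E90. Base differences here are those over the length that 2 listed sequences share. miR-376d-3p in day 180 replicate 1, where it had 3 copies, was listed with A6G inside the seed. miR-1983-3p was listed with T21A in day 180 replicates 1 and 2 and with another sequence, of 27 nt, in replicate 3. Conserved copies under 20 nt were 0.120% at E90, against 2.76%, 2.73% and 6.82% at day 180. Without the chromosome 6 block they were 0.0355% at E90, against 0.188%, 0.420% and 0.142%. Putative new copies began with T in 85.2% at E90, against 36.3%, 35.3% and 33.8% at day 180, and PN-1631-3p, which begins with T, held 14212 of the 17567 copies at E90.

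**Figure D5:**
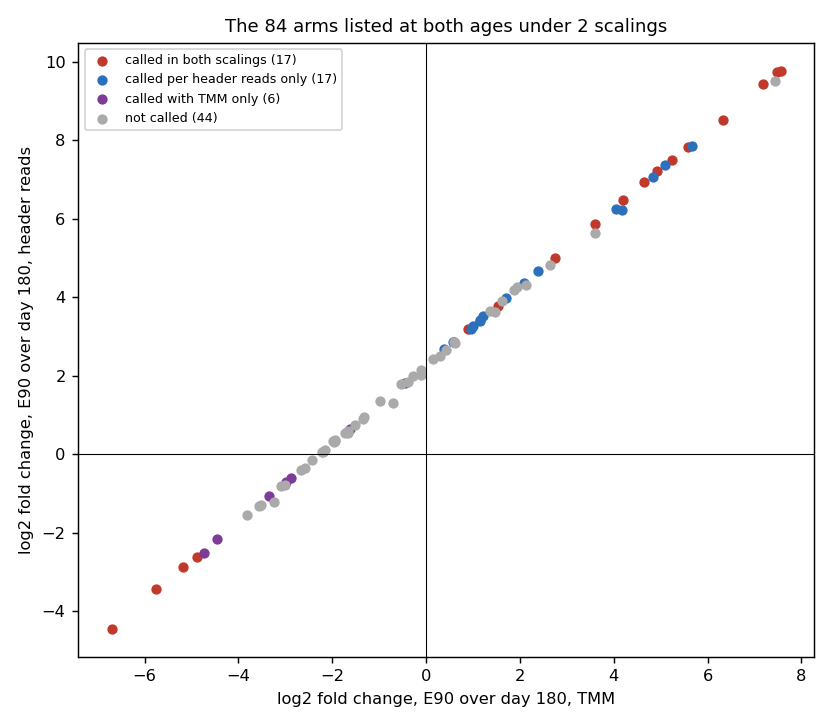
Log2 fold change, E90 over day 180, of the 84 arms listed at both ages per header read (vertical axis) and with TMM (horizontal axis), coloured by which scaling called the arm in edgeR. The points lie along a line shifted by about 2.26 between the axes, and 17 arms were called in both scalings, 17 per header read only and 6 with TMM only.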

How the data were processed

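Total RNA was extracted with Trizol, fragments of 10 to 40 nt were cut from a polyacrylamide gel, and libraries were read on a Genome Analyzer II from Illumina, per the labels' protocols. The deposited tables give whole-number counts of copies per miRNA arm and library, not normalised, with the most abundant sequence of each library, high-quality reads per library and Sscrofa10 coordinates, per the file headers. Which aligner and miRNA caller were used is not stated there. Arms whose chromosome field named no chromosome have no coordinates printed. Empty cells were counted as 0. The 426 putative new entries were merged to 395 where sequence and values were identical, which left 495 arms with 100 conserved ones.

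RPM is copies per 1000000 high-quality reads. The floor of 3 copies per library is 0.595 RPM at E90 and 0.245, 0.287 and 0.332 RPM at day 180. It is a set value and not the lowest listed count, as miR-1983-5p had 2 copies in day 180 replicate 1. Intervals and floors take in no more than counting error, because copies made by PCR are not separate molecules. Day 180 replicates differed by more than counting error (chi-square per degree of freedom 11.1 to 23.4). Arms with 10 or more copies in at least 1 of 9 libraries entered edgeR 4.0.16 under R 4.3.3 (robust glmQLFit, a term per age, header reads as library size, Benjamini-Hochberg threshold 0.05). Arm usage was tested with diffSpliceDGE. SE is the absolute log2 fold change over the root of F. Scripts were tested on simulated data. DESeq2 1.42.0, TMM, other filters, left-out replicates and joined entries were alternatives. Python 3.11.15, pandas 2.3.3, scipy 1.17.1 and matplotlib 3.10.9 were used.

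The arms and lists were chosen with earlier results of these data known. Arms named in the text were called arms at 10 RPM or more with the largest changes, up to 15 per direction, the 10 most abundant at each age, members of the lists and precursors called for arm usage. A further 16 were named after their values were seen: miR-590-3p, miR-33a-5p, miR-1983-3p, miR-5105-5p, both arms of PN-870046, PN-1631-5p, PN-1633-3p, PN-11744-3p, PN-24885174-5p, PN-48639689-3p, PN-69264044-3p, PN-80865-5p and the 3 PN arms lost on joining.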

Additional observations from a re-analysis of the deposited data

How the results depend on the processing

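The calls depended on the scaling and on the value given to empty cells. Against 40 arms higher and 6 lower per header read, TMM gave 14 and 12, DESeq2 size factors 11 and 11, and the summed copies of both tables as library size 7 and 13. With the E90 and day 180 libraries alone there were 26 and 10, with empty cells as 2 copies 81 and 11, and with the conserved table alone, of 69 arms tested, 43 and 3. Leaving out 1 replicate of day 180 or 7 years gave 27 to 38 higher and 4 to 7 lower. No paired analysis was possible because E90 has 1 library and the labels name no pairing of libraries between the ages.

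Arm usage, with 5 calls, gave 2 without a filter, 3 with TMM, 10 with empty cells as 2 copies and 2 to 5 when a replicate was left out. As shares of listed copies the ratios of E90 to day 180 were 1.11 for conserved arms, 1.37 for the DLK1-DIO3 list and 0.603 for putative new arms, which reversed. In RPM, the ratio of 13 for the DLK1-DIO3 list was 19.7 without miR-431-5p (2.07 as shares), and the 5.70 for putative new arms was 1.11 without PN-1631-3p and PN-1633-3p, an alternative chosen after seeing the data. Of 1141 values of the 66 named arms and 5 precursors under alternatives, 903 kept direction and call, 167 lost and 47 gained a call, and 24 changed sign. With TMM, DESeq2 size factors and table totals the log2 fold changes that changed sign were -1.34, -1.53 and -2.29 for miR-141-3p, -2.18, -2.34 and -3.13 for miR-26b-3p, -1.62, -1.80 and -2.58 for miR-539-3p, -0.38, -0.60 and -1.36 for miR-6529-5p, -0.53, -0.67 and -1.48 for PN-48639689-3p, and -0.44, -0.62 and -1.40 for PN-870046-5p. With table totals alone they were -0.0621 for miR-26b-5p, -0.00764 for miR-301b-3p, -0.37 for miR-431-5p, -0.38 for miR-590-3p and -0.58 for PN-870046-3p. PN-80865-5p was 1.81 once joined with PN-80868-5p, which holds the E90 copies. For the others the cause was not tested. An arm at the floor of 3 copies cannot be told from an absent one.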
